A study of Mus musculus with 65 samples.

Results

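Macrophages are tissue phagocytes that live in every mammary gland and also gather in mammary tumours. Their survival depends on colony stimulating factor 1, which binds a receptor on their surface, and they are the main source of C1q, the recognition molecule that starts the classical complement pathway. In the gland they are known to clear dying cells and milk debris and to take part in duct growth, and in tumours they are among the most common host cells.

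The 10 genes described here are macrophage and C1q genes. They were chosen by name, as every probe set on the array that is annotated to 1 of these genes alone, and they make up 17 of 34958 such probe sets and 10 of 18194 genes. The ligand is Csf1 and its receptor is Csf1r. General markers are Lyz2, a lysozyme made by macrophages and neutrophils, Adgre1, which encodes the F4/80 antigen, and Cd68, a lysosomal membrane protein. Scavenger receptors typical of resident macrophages are Mrc1, the mannose receptor CD206, and Cd163, the haemoglobin-haptoglobin receptor. The complement genes are C1qa, C1qb and C1qc, whose products form the A, B and C chains of C1q. All 10 genes passed the filter on low values in both tissues.

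Affymetrix arrays gave messenger RNA levels for 17 glands and 48 tumours of the mouse mammary gland. Gland donors were BALB/c littermates, 10 weeks old and either heterozygous for Tgfb1 or wild type, and every animal received estrogen and progesterone 2 days before treatment. Heterozygous glands were taken 1 week after a sham treatment (n = 3), 1 week after 10 cGy (n = 2) or 4 weeks after 10 cGy (n = 3), and wild-type glands likewise with 3 arrays in each group. RNA came from the rear part of the inguinal gland after its lymph node had been taken out. The tumours grew from p53-null BALB/c mammary tissue that had itself not been irradiated. It was transplanted into the inguinal fat pads of BALB/c females whose own epithelium had been cleared at 3 weeks of age. Hosts were Tgfb1 heterozygotes that were irradiated (10 tumours) or sham-treated (6 tumours), and wild-type animals that were irradiated (23 tumours) or sham-treated (9 tumours), in each case 3 days before transplantation. Host stroma thus carried the Tgfb1 genotype and the radiation, while the transplanted epithelium lacked p53 in all 48 tumours. No source used here gives the dose the hosts received. In 1 tumour the labels disagree on host treatment, and it was kept among those of irradiated wild-type hosts, as its title says.

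Array medians lay between 29.08 and 30.56 in deposited intensity for glands and between 5.84 and 5.96 in deposited log2 units for tumours. These values had been processed by RMA, so they cannot show whether the arrays were alike in brightness before it. Some arrays stood apart by markers of other cells. The mean log2 level of B cell genes was 7.44, 9.08 and 7.82 in 3 glands (wild-type sham array 1, wild-type 1-week array 1 and heterozygous sham array 1), against a median of 5.51 over all glands. Skeletal muscle genes were over 1.5 log2 units above their median in 7 glands, and luminal epithelium genes over 1.5 units below theirs in 11 tumours. White adipocyte genes averaged 11.35 to 11.88 in every gland. The labels do not say that repeats within a gland group are separate animals, so p-values measure the spread between these arrays, which may be technical. Differences were recomputed without the arrays that stood apart.

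The C1q genes lie side by side on mouse chromosome 4, in the order C1qb, C1qc, C1qa, and their levels varied together from array to array in both tissues. The 250 bases before the annotated start are shown for C1qb and C1qc, as members whose levels varied together, and for Mrc1 and Cd163, the members that followed them least in tumours. They come from RefSeq, build GRCm38.p6, at chr4:136886201-136886450 (minus strand), chr4:136892915-136893164 (minus strand), chr2:14229164-14229413 (plus strand) and chr6:124304401-124304650 (plus strand). Capitals mark GAGGAA or its reverse complement, the core bound by the macrophage factor PU.1.
C1qb: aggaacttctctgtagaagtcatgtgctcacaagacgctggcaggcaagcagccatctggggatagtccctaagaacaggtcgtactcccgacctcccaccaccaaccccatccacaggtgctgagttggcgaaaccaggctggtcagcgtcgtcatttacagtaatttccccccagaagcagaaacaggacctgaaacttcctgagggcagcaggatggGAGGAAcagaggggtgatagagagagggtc
C1qc: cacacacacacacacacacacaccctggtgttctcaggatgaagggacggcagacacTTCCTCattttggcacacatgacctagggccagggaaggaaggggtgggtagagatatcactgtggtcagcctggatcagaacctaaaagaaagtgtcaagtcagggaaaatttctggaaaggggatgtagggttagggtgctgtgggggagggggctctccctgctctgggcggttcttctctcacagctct
Mrc1: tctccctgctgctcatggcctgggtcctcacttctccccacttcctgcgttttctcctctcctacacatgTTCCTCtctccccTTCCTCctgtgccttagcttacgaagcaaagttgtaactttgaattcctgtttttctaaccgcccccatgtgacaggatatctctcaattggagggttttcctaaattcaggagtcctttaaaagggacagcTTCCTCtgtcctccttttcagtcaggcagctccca
Cd163: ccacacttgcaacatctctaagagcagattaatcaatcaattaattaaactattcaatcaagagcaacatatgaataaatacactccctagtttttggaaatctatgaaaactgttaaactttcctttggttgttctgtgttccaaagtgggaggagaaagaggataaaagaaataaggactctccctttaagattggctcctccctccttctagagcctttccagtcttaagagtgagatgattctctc

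The window held 1 match in C1qb, 1 in C1qc, 3 in Mrc1 and 0 in Cd163. Searched on both strands, GAGGAA occurs in 23.253% of 32851 promoter windows of 250 bases, so a match is common. Promoter sequence was at hand for 7 of the 10 members, and 4 of them (Cd68, Mrc1, C1qb and C1qc) held the letters. These counts describe the letters only.

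In wild-type glands 1 week after 10 cGy, all 10 genes had a higher mean than in sham glands, by 0.23 to 0.72 on the log2 scale, and none passed the test. The difference was largest for Lyz2, followed by Cd68, the C1q genes and the receptor Csf1r. Among the 3 irradiated glands, 2 exceeded all sham glands in 10 of 10 members. Irradiated array 1 did so for Lyz2 alone and lay below all sham glands for Mrc1, Cd163 and Csf1. On the sham side, array 3 was the lowest of its group for all 10 members, so the shift rests on that gland too.

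Lyz2 measured 12.53, 12.86 and 12.61 log2 units in wild-type glands 1 week after 10 cGy, against 12.29, 12.25 and 11.29 in wild-type sham glands. All 3 irradiated glands were above all 3 sham glands, and sham array 3 stood well below the other sham arrays. The difference was 0.72 (SE 0.28, a fold of 1.65, 95% interval 0.13 to 1.31), with an unadjusted p of 0.0208 and an adjusted p of 0.958 by limma over 12945 genes. It was the only member of the 10 whose groups did not overlap, and of all genes tested 4.13% were higher without overlap and 5.98% lower. Without sham array 3 the difference was 0.39, with an unadjusted p of 0.141 by limma. It was 0.40 without the 7 glands rich in muscle genes, a setting that leaves a single wild-type sham gland.

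Csf1r measured 11.73, 12.23 and 12.14 in wild-type glands 1 week after 10 cGy, against 11.41, 11.91 and 11.20 in wild-type sham glands. Irradiated array 1 fell among the sham values and the other arrays lay above them. The difference was 0.53 (SE 0.25, interval -0.01 to 1.06). The other 2 probe sets of Csf1r gave 0.57 and 0.65. Its ligand Csf1 measured 8.65, 9.61 and 9.37 in irradiated glands, against 8.91, 9.15 and 8.90 in sham glands, so the irradiated glands lay on both sides of the sham values. The 4 probe sets of Csf1 gave differences of 0.23, 0.27, 0.36 and 0.51.

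C1qa measured 11.29, 12.56 and 12.16 in wild-type glands 1 week after 10 cGy, against 11.54, 11.74 and 11.10 in wild-type sham glands. C1qb measured 10.35, 11.75 and 11.27 in irradiated glands, against 10.77, 10.75 and 10.01 in sham glands. C1qc measured 9.62, 10.87 and 10.53 in irradiated glands, against 9.86, 10.11 and 9.35 in sham glands. In each of the 3 genes irradiated arrays 2 and 3 were above every sham gland, and irradiated array 1 lay between the highest and the lowest sham gland. The differences were 0.54 for C1qa, 0.62 for C1qb and 0.56 for C1qc, with standard errors of 0.32, 0.39 and 0.36.

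Cd68 measured 8.47, 9.76 and 9.54 in wild-type glands 1 week after 10 cGy, against 8.87, 8.94 and 8.03 in wild-type sham glands, and Adgre1 measured 7.51, 8.67 and 8.29 against 7.99, 8.08 and 7.13. The scavenger receptors had the smallest differences after Csf1, at 0.34 for Mrc1 and 0.26 for Cd163. Mrc1 measured 9.30, 10.85 and 10.32 in irradiated glands, against 9.97, 9.92 and 9.56 in sham glands, and Cd163 measured 8.53, 10.07 and 9.64 against 9.14, 9.47 and 8.86. For both receptors irradiated array 1 was below all sham glands and the other irradiated arrays were above them.

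Over the 10 members the median difference was 0.53, beside -0.02 over all genes. With limma 0 of 10 members and 0% of all genes passed the adjusted threshold of 0.05, and at an unadjusted p under 0.05 the counts were 1 of 10 members and 588 genes, or 4.54%. Without irradiated array 2 the member median was 0.28. Irradiated array 1 was the gland with the highest B cell level. Without the 3 glands rich in B cell genes the 10 differences ran from 0.47 to 1.17 with a median of 0.91, and without the 7 glands rich in muscle genes they ran from 0.10 to 0.57 with a median of 0.26. The second setting leaves a single wild-type sham gland, which is then assumed to vary like the other groups. Muscle genes differed in this comparison too. All 12 were lower in irradiated glands, with a median difference of -2.23, and with a mean level of 5.89 in irradiated glands (4.09 to 9.44) and 8.16 in sham glands (4.13 to 11.48), and their part in the result was not tested. In whole-tissue RNA, more or fewer macrophages and more or less RNA per macrophage cannot be told apart.

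**Figure D1:**
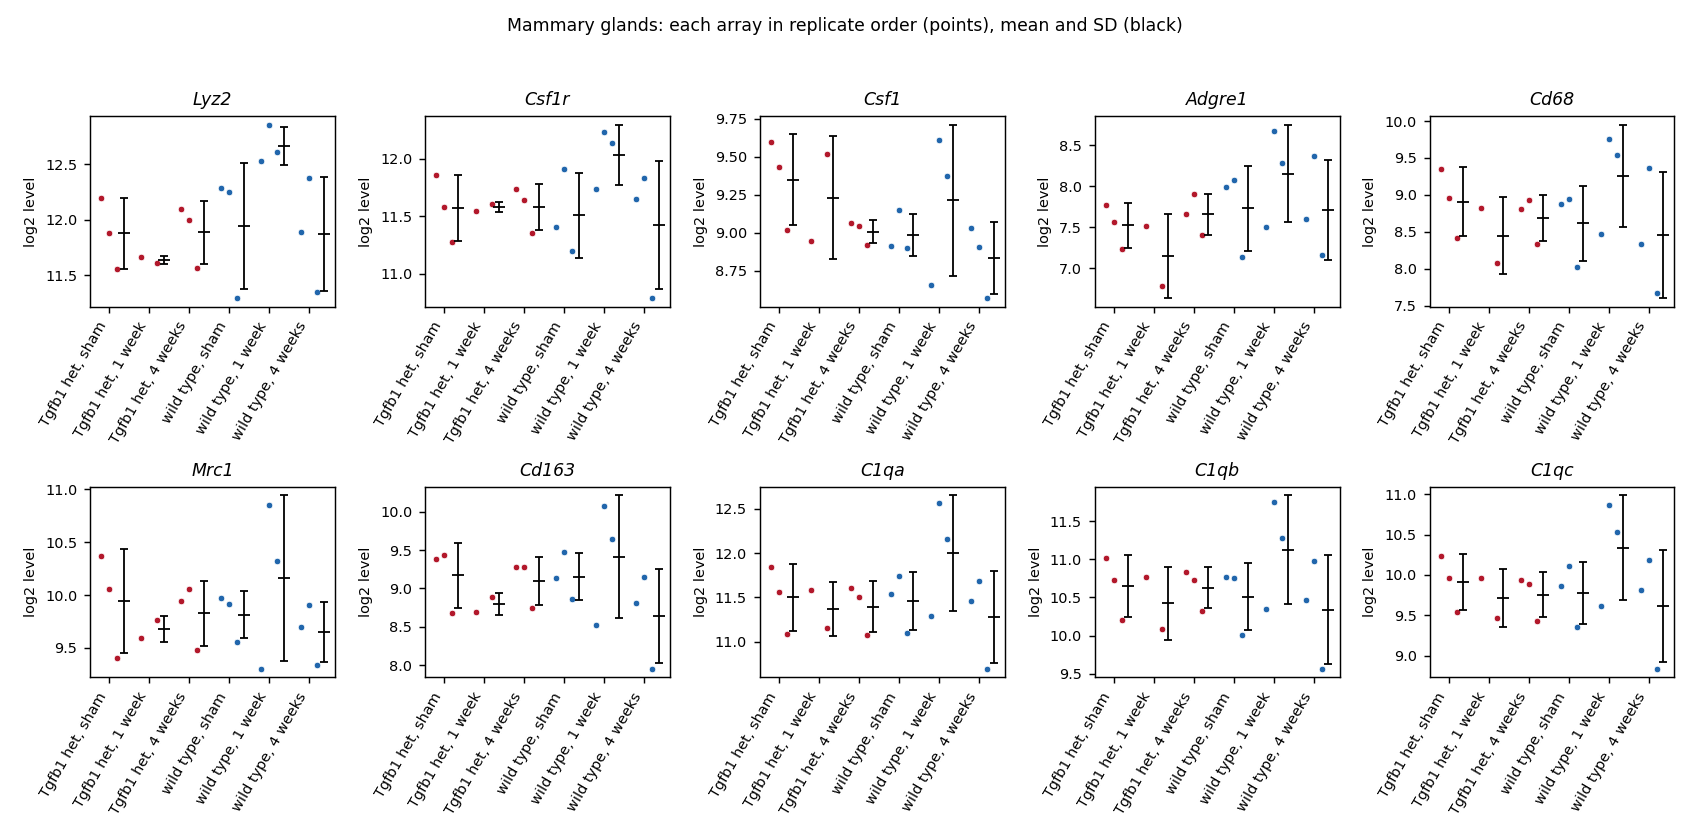
Log2 level (y axis, a scale of its own in each panel) of the 10 genes in every gland, by group (x axis), with heterozygous glands in red, wild-type glands in blue and the mean and SD of each group in black. Wild-type 1-week array 2 is the highest of the 17 glands in all 10 panels, and wild-type 4-week array 3 is the lowest in 7.

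Most other macrophage genes had the same sign, but they were read on the same arrays and are not separate support. Of 18 further macrophage markers tested, 16 were higher in wild-type glands 1 week after 10 cGy than in wild-type sham glands, with a median difference of 0.54. Their mean level was 8.32 to 9.12 in the irradiated glands and 7.96 to 8.42 in the sham glands, so the groups overlapped. The smallest p belonged to a gene of the opposite sign, Cd14, a co-receptor for bacterial lipopolysaccharide, at -0.57 (SE 0.14, adjusted p = 0.958 by limma). Of 17 further complement genes 16 were higher, with a median of 0.27, and the smallest p was that of Itgax, a chain of complement receptor 4, at 0.57 (SE 0.25, adjusted p = 0.958 by limma). Of 7 genes tested for colony stimulating factors, their receptors and myeloid transcription factors, 6 were higher, led by Spi1, which encodes PU.1, at 0.61. Of 8 activation genes 7 were higher, with the smallest p for Hmox1, the haem-degrading enzyme, at 0.81. No gene of these lists passed the adjusted threshold.

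In heterozygous glands at 1 week most differences had the opposite sign. Of the 10 genes 9 had a lower mean in heterozygous glands 1 week after 10 cGy than in heterozygous sham glands, and the differences ran from -0.46 for Cd68 to 0.01 for Csf1r. For Csf1r the sign depended on the probe set. Its brightest one averaged 11.58 in irradiated and 11.57 in sham glands. The other 2 were lower in irradiated glands, at 9.76 against 9.93 and 8.22 against 8.51. With 2 irradiated glands, standard errors were 0.25 to 0.48, and 0 of 10 members passed the limma test, beside 0% of all genes. An unadjusted p under 0.05 was found for 0 of 10 members and 513 genes, or 3.96%.

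Lyz2 measured 11.66 and 11.61 in heterozygous glands 1 week after 10 cGy, against 12.19, 11.88 and 11.56 in heterozygous sham glands. Cd68 measured 8.82 and 8.08 in irradiated glands, against 9.35, 8.96 and 8.42 in sham glands. C1qa measured 11.58 and 11.16 in irradiated glands, against 11.85, 11.56 and 11.09 in sham glands. In each of these genes at least 1 irradiated gland lay within the range of the sham glands. The macrophage markers outside the 10 were lower in 16 of 18 cases, with a median of -0.27, beside -0.06 over all genes. All 6 B cell genes were lower, with a median of -1.19, and 1 of the 3 heterozygous sham glands was rich in them. All 12 muscle genes were higher, with a median of 1.01. The part of both in the result was not tested. Without the glands rich in B cell genes, the median difference of the 10 members was -0.05, with 3 higher and 7 lower. Without the glands rich in muscle genes it was 0.12, with 6 higher and 4 lower, and that setting leaves 1 irradiated heterozygous gland. Without heterozygous sham array 3 it was -0.42.

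The change at 1 week was compared between genotypes by an interaction, the change in heterozygous glands minus the change in wild-type glands. All 10 members had a negative value, from -1.10 for Cd68 to -0.35 for Csf1, with a median of -0.72 beside -0.03 over all genes. Lyz2 had -0.96 (SE 0.42, interval -1.85 to -0.07), an unadjusted p of 0.0364 and an adjusted p of 1.00 by limma. It was 1 of 10 members at that level, beside 395 of all genes, or 3.05%, and 0 of 10 members and 0% of all genes passed the adjusted threshold. Without the glands rich in B cell genes the member median was -0.99 and all 10 values stayed negative. Without the glands rich in muscle genes it was -0.21, with 8 negative and 2 positive values, and Lyz2 had -0.46. That setting leaves a single wild-type sham gland and a single heterozygous 1-week gland. Without wild-type sham array 3 Lyz2 had -0.63 (unadjusted p = 0.0974). Without wild-type 1-week array 2 the member median was -0.46 and Lyz2 had -0.86 (unadjusted p = 0.0743).

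At 4 weeks the means of wild-type glands lay just under those of sham. All 10 members had a lower mean in wild-type glands 4 weeks after 10 cGy than in wild-type sham glands, with differences from -0.52 for Cd163 to -0.02 for Adgre1, and none passed. The sham glands are the same ones as in the 1-week comparison and were taken at 1 week. This contrast therefore also spans 3 weeks of age and of time since the hormone treatment. Cd163 measured 8.81, 9.15 and 7.95 in wild-type 4-week glands, against 9.14, 9.47 and 8.86 in wild-type sham glands. C1qa measured 11.46, 11.69 and 10.70 in 4-week glands, against 11.54, 11.74 and 11.10 in sham glands. The low mean rested on array 3, which was below all sham glands in 8 of 10 members, and without it the median difference was 0.20, beside -0.16 with it. Without sham array 3 the median was -0.37. It was -0.11 without the glands rich in B cell genes and -0.29 without those rich in muscle genes, with 8 members lower in either case. The second setting leaves a single wild-type sham gland, itself rich in B cell genes, against a single wild-type 4-week gland. With limma 0 of 10 members and 0% of genes passed, and an unadjusted p under 0.05 was found for 0 members and 296 genes, or 2.29%.

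Heterozygous glands 4 weeks after 10 cGy differed from heterozygous sham glands by -0.34 for Csf1 up to 0.14 for Adgre1, with a median of -0.09. These sham glands were also taken at 1 week, so age and time since the hormone treatment differ too. Csf1 measured 9.06, 9.04 and 8.92 in heterozygous 4-week glands, against 9.60, 9.43 and 9.02 in heterozygous sham glands, and Lyz2 measured 12.09, 12.00 and 11.57 against 12.19, 11.88 and 11.56. For both genes the groups overlapped. The median was 0.09 without heterozygous 4-week array 3 and -0.31 without heterozygous sham array 3. It was 0.08, with 8 higher and 2 lower, both without the glands rich in B cell genes and without those rich in muscle genes, since heterozygous sham array 1 is in both sets. None of the 10 members passed, beside 0.0154% of all genes in this comparison (2 genes, and 1 with the replicate number as a block), and an unadjusted p under 0.05 was found for 0 members and 685 genes, or 5.29%. The interaction at 4 weeks ran from -0.19 to 0.45 over the members, with 0 of 10 passing, beside 0% of genes, and with 0 members and 231 genes (1.78%) at an unadjusted p under 0.05.

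Without radiation no member passed the test between genotypes, and the intervals were wide. Heterozygous sham glands differed from wild-type sham glands by -0.21 for Adgre1 up to 0.36 for Csf1, with a median of 0.10, and 0 of 10 members and 0% of genes passed with limma. An unadjusted p under 0.05 was found for 0 members and 460 genes, or 3.55%. Csf1 measured 9.60, 9.43 and 9.02 in heterozygous sham glands, against 8.91, 9.15 and 8.90 in wild-type sham glands, and the groups overlapped. The median over the members turned to -0.20 (2 higher, 8 lower) without the glands rich in muscle genes and to -0.03 (4 higher, 6 lower) without those rich in B cell genes. The first setting leaves a single wild-type sham gland, itself rich in B cell genes. Leaving out heterozygous sham array 3 gave a median of 0.29, and leaving out wild-type sham array 3 gave -0.10. The interval for Csf1 ran from -0.12 to 0.85 and that for Csf1r from -0.47 to 0.60.

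Averaged over sham, 1 week and 4 weeks, heterozygous glands were lower than wild-type glands in 9 of 10 members. Lyz2 had the smallest p, at a difference of -0.36 (SE 0.17, unadjusted p = 0.0483, adjusted p = 0.413 by limma), and Adgre1 had a difference of -0.42 (SE 0.21). Lyz2 thus made 1 of 10 members at an unadjusted p under 0.05, beside 12% of all genes in this comparison, and 0 of 10 passed the adjusted threshold, beside 0.0463% of all genes. With 1 array left out at a time the difference of Lyz2 ran from -0.47 (without wild-type sham array 3) to -0.28 (without wild-type 4-week array 2), and the unadjusted p from 0.00512 to 0.103. The member median was -0.09, and it was -0.25 without the glands rich in B cell genes and -0.15 without those rich in muscle genes. Glands taken 4 weeks after 10 cGy were lower than those taken 1 week after it in 9 of 10 members when averaged over genotypes, from -0.35 for C1qa to 0.03 for Adgre1. No sham glands were taken at 4 weeks, so age and time since the hormone treatment cannot be told apart from time since 10 cGy. The median was -0.29, and it was -0.45 without the glands rich in B cell genes and -0.12 without wild-type 4-week array 3. None of the 10 passed, beside 0.0695% of genes, and an unadjusted p under 0.05 was found for 0 members and 15.7% of genes.

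The 10 genes varied from gland to gland as a block. In 5 of the 6 groups a single array was the lowest for all 10 members at once. It was array 3 among heterozygous sham, heterozygous 4-week, wild-type sham and wild-type 4-week glands, and array 1 among wild-type 1-week glands. In the heterozygous 1-week group, with its 2 arrays, array 2 was the lower for 6 members. The mean of the C1q genes was 10.28 in heterozygous sham array 3 and 9.70 in wild-type 4-week array 3, and it reached 11.73 in wild-type 1-week array 2. The span over the 17 glands ran from 1.04 log2 units for Csf1 to 2.19 for C1qb.

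After the group means had been subtracted, C1qa and C1qb had a Pearson r of 0.98 over 17 glands (Spearman rho 0.95), C1qa and C1qc 0.99 (rho 0.98), and C1qb and C1qc 0.99 (rho 0.94). With the mean of the C1q genes, r was 0.97 for Cd68, 0.95 for Adgre1, 0.92 for Cd163, 0.88 for Csf1r, 0.87 for Mrc1 and 0.83 for Lyz2. The adjusted permutation p of these 9 relations was between 0.0003 and 0.00129 for r. Csf1, the ligand, followed least closely, with r = 0.69 (rho 0.64, adjusted permutation p = 0.0293), and without the 2 glands farthest from the median its r was 0.32, so that relation rests on them. The genes most like the C1q mean among 12935 other genes, as a description, were Cd209g (r = 0.99), P2ry6, F13a1, Cfp, Pf4, C3ar1, Fcer1g and Fcgr3 (0.97). All points share array, RNA sample and normalization.

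**Figure D2:**
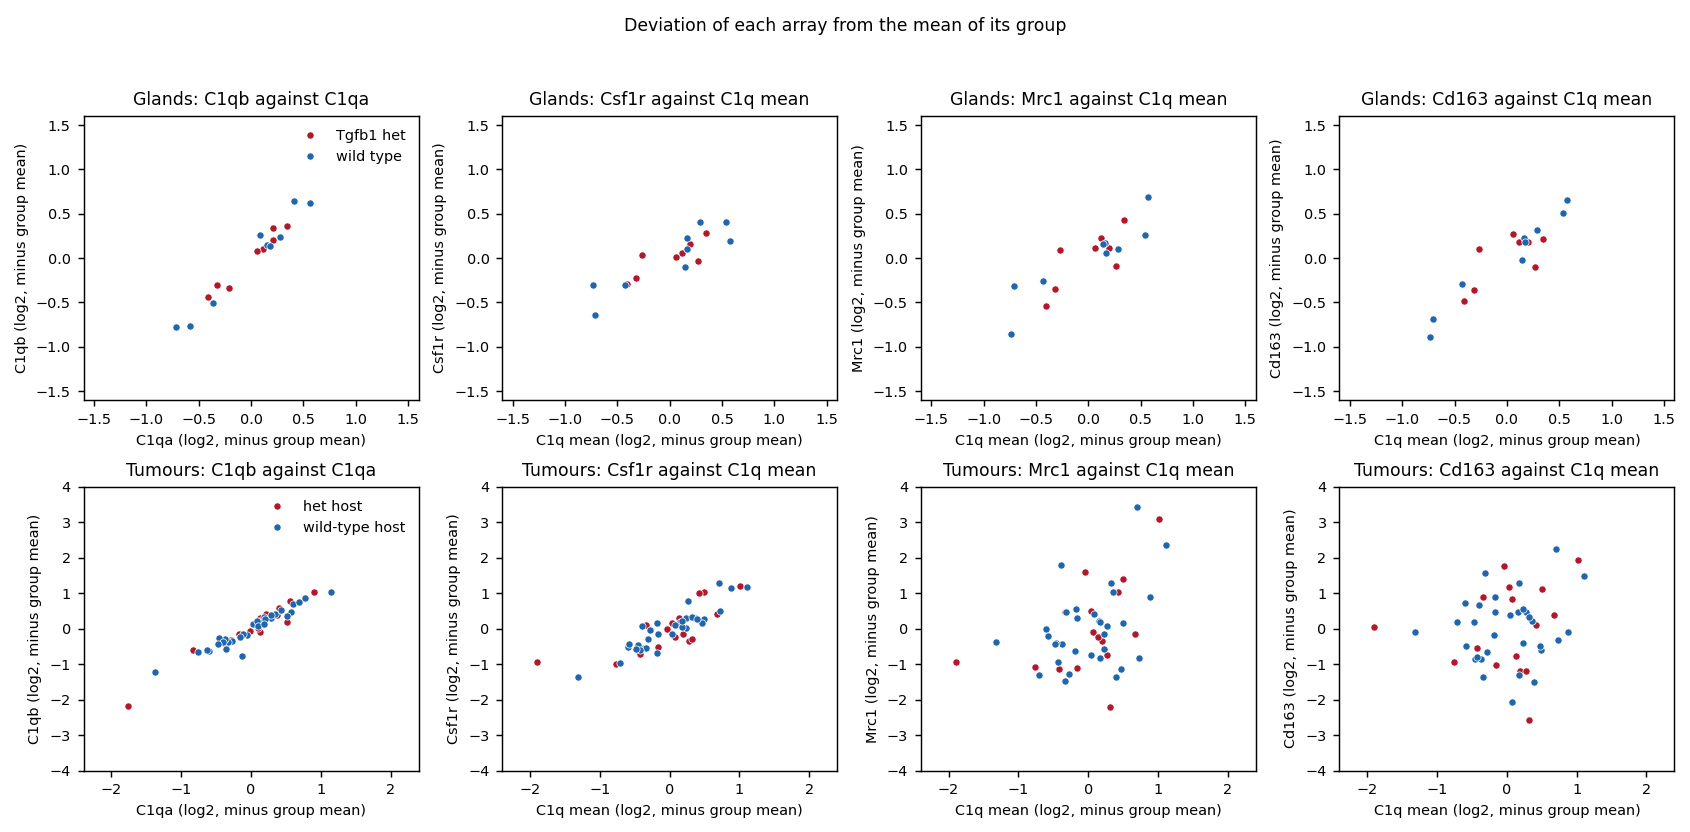
Deviation of each array from the mean of its group, in log2 units, for C1qb against C1qa and for Csf1r, Mrc1 and Cd163 against the mean of the C1q genes, in 17 glands (upper row) and 48 tumours (lower row), with heterozygous animals or hosts in red and wild-type ones in blue. Mrc1 and Cd163 follow C1q in glands, with r of 0.87 and 0.92, and spread widely in tumours, with r of 0.44 and 0.17.

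In tumours of wild-type hosts the scavenger receptors had the largest differences of the 10 members. Means were lower in tumours of irradiated wild-type hosts than in tumours of sham-treated ones for Mrc1 (difference -0.998) and Cd163 (-1.03), while the C1q genes differed by 0.07 to 0.16. Neither receptor passed the adjusted test over all genes. Of the 23 tumours from irradiated hosts, 21 lay below the sham median of Cd163 and 19 below that of Mrc1.

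Cd163 had a lowest, median and highest value of 3.97, 5.96 and 8.30 log2 units in tumours of irradiated wild-type hosts, against 5.56, 7.26 and 8.55 in tumours of sham-treated wild-type hosts. The irradiated-host median was close to the tumour array medians over all probe sets (5.84 to 5.96). The lowest value was under the level of the filter on low values, 5.14. What such low values add to the difference was not tested. In 7 irradiated-host tumours Cd163 was below every sham-host tumour. The groups overlapped over the rest of their range, and the difference was -1.03 (SE 0.42, interval -1.86 to -0.19, unadjusted p = 0.0177, adjusted p = 0.647 by limma). Mrc1 had 7.09, 8.24 and 11.83 in irradiated-host tumours, against 7.93, 9.18 and 11.76 in sham-host tumours, and 8 irradiated-host tumours were below every sham-host tumour while 1 was above them all. The difference was -0.998 (SE 0.46, interval -1.93 to -0.07, unadjusted p = 0.0356, adjusted p = 0.686 by limma). With both, 2 of 10 members had an unadjusted p under 0.05, beside 887 of all genes, or 6.94%, and 0 of 10 members and 0% of genes passed the adjusted threshold. Without the 11 tumours poor in epithelium the differences were -0.72 for Cd163, with an unadjusted p of 0.0762, and -0.92 for Mrc1, with an unadjusted p of 0.00804. With the tumour of disputed host treatment counted as sham, they were -0.99 for Cd163 and -0.93 for Mrc1.

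The other 8 members differed by -0.22 to 0.26 between these groups. C1qa had a lowest, median and highest value of 11.14, 12.60 and 13.30 in tumours of irradiated wild-type hosts, against 11.75, 12.22 and 13.52 in tumours of sham-treated wild-type hosts. C1qb had 10.78, 12.14 and 12.89 in irradiated-host tumours, against 11.26, 11.60 and 12.87 in sham-host tumours, and C1qc had 9.93, 11.33 and 12.25 against 10.67, 11.08 and 12.37. In all 3 genes the median was higher and the lowest value lower in irradiated-host tumours. Csf1r had 10.18, 11.59 and 12.83 in irradiated-host tumours, against 11.01, 11.77 and 12.78 in sham-host tumours, and the intervals of the difference were -0.56 to 0.43 for Csf1r and -0.30 to 0.57 for C1qa. The interval of Lyz2 ran from -0.43 to 0.57, of Cd68 from -0.73 to 0.30, of Adgre1 from -0.26 to 0.68 and of Csf1 from -0.25 to 0.77.

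Among the other macrophage markers 9 were higher and 8 lower in tumours of irradiated wild-type hosts, with a median difference of 0.02. The smallest p was that of Folr2, a folate receptor of resident macrophages, at -0.96 (SE 0.32, unadjusted p = 0.00437, adjusted p = 0.520 by limma). Among 15 complement genes 11 were lower, with the smallest p for Vsig4, a complement receptor of resident macrophages, at -1.12 (SE 0.41, adjusted p = 0.538 by limma). Among 9 activation genes 5 were lower, with the smallest p for Hmox1, which breaks down the haem that CD163 brings in, at -1.55 (SE 0.37, unadjusted p = 0.000105, adjusted p = 0.319 by limma). None of these passed. Markers of other host cells went both ways. Lower means were seen for all 7 adipocyte genes (median -0.29), all 9 fibroblast genes (-0.29) and all 8 endothelial genes (-0.38). Means were higher for 7 of 8 T and NK cell genes (median 0.22) and 3 of 3 B cell genes (0.09). The part of these cells in the result was not tested. The mean adipocyte level was 6.30 to 8.04 in tumours of irradiated wild-type hosts, against 6.00 to 9.43 in those of sham-treated ones.

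**Figure D3:**
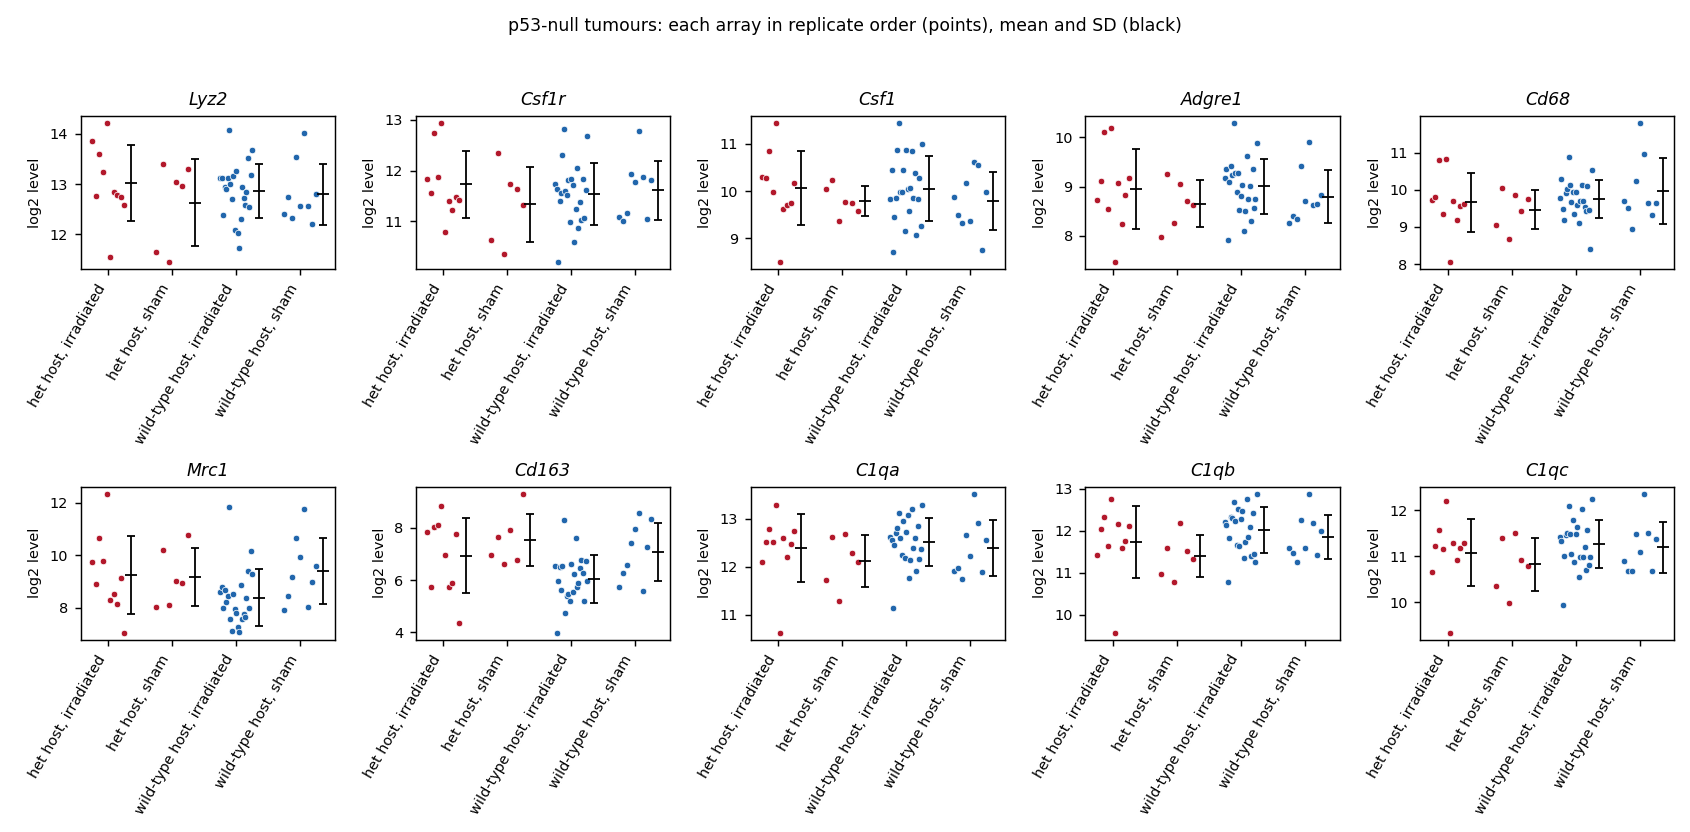
Log2 level (y axis, a scale of its own in each panel) of the 10 genes in every tumour, by host genotype and treatment (x axis), with heterozygous hosts in red, wild-type hosts in blue and the mean and SD of each group in black. Most tumours of irradiated wild-type hosts sit low for Mrc1 and Cd163, whereas the 4 groups overlap closely for the C1q genes, Lyz2 and Csf1r.

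In heterozygous hosts no member passed the test either. Tumours of irradiated heterozygous hosts had higher means than tumours of sham-treated heterozygous hosts for all members except Cd163, with differences from -0.61 for Cd163 to 0.39 for Csf1r and a median of 0.27. Cd163 had a lowest, median and highest value of 4.34, 7.36 and 8.85 in irradiated-host tumours (n = 10), against 6.60, 7.30 and 9.31 in sham-host tumours (n = 6). Its medians were thus close, while 4 irradiated-host tumours lay below every sham-host tumour. Mrc1 had 7.04, 9.03 and 12.35 in irradiated-host tumours, against 8.04, 9.00 and 10.78 in sham-host tumours, and the difference was 0.07 (SE 0.61). With limma 0 of 10 members and 0% of genes passed, and an unadjusted p under 0.05 was found for 0 members and 505 genes, or 3.95%. The interaction, the change in heterozygous hosts minus the change in wild-type hosts, was positive for all 10 members, from 0.01 for Csf1 to 1.07 for Mrc1 (SE 0.76, interval -0.46 to 2.61). None of the 10 passed, beside 0% of genes, and an unadjusted p under 0.05 was found for 0 members and 617 genes, or 4.83%. Without the 11 tumours poor in epithelium, 4 interaction values were positive and 6 negative.

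Among irradiated hosts, tumours from heterozygous animals had higher Cd163 and Mrc1 than tumours from wild-type animals. Cd163 differed by 0.87 (SE 0.40, interval 0.07 to 1.68, unadjusted p = 0.0346, adjusted p = 0.864 by limma), with values of 4.34, 7.36 and 8.85 in tumours of irradiated heterozygous hosts, against 3.97, 5.96 and 8.30 in those of irradiated wild-type hosts. Mrc1 differed by 0.87 as well (SE 0.44, unadjusted p = 0.0568). Of the 10 tumours from irradiated heterozygous hosts, 4 were below the wild-type median for Cd163 and 2 for Mrc1. The other 8 members differed by -0.28 to 0.19. Cd163 made 1 of 10 members at an unadjusted p under 0.05, beside 5.6% of all genes, and 0 of 10 passed the adjusted threshold, beside 0.00782% of all genes. Of the 17 further macrophage markers 8 were higher and 9 lower in tumours of irradiated heterozygous hosts, with a median of -0.03, and of 9 activation genes 7 were higher, with a median of 0.24. The smallest p of each list belonged to 1 gene that did not pass. Lyve1, a hyaluronan receptor of resident macrophages and lymph vessels, was higher by 1.41 (SE 0.57, adjusted p = 0.814 by limma), and Retnla, a gene of alternatively activated macrophages, by 1.04 (SE 0.36, adjusted p = 0.801 by limma). All 7 adipocyte genes were higher as well (median 0.80), as were all 8 endothelial genes (0.62), and their part in the result was not tested. This comparison and that of irradiated with sham-treated wild-type hosts share the same 23 tumours, so their values are not independent. Without the tumours poor in epithelium the difference of Cd163 was 0.53, with an unadjusted p of 0.170.

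Tumours of sham-treated heterozygous hosts had lower means than tumours of sham-treated wild-type hosts in 9 of 10 members, from -0.50 for Cd68 to 0.46 for Cd163, with a median of -0.23. C1qb had a lowest, median and highest value of 10.79, 11.42 and 12.18 in heterozygous sham hosts, against 11.26, 11.60 and 12.87 in wild-type sham hosts, and the groups overlapped. None of the 10 members passed, beside 0% of genes, and an unadjusted p under 0.05 was found for 0 members and 676 genes, or 5.29%.

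**Figure D4:**
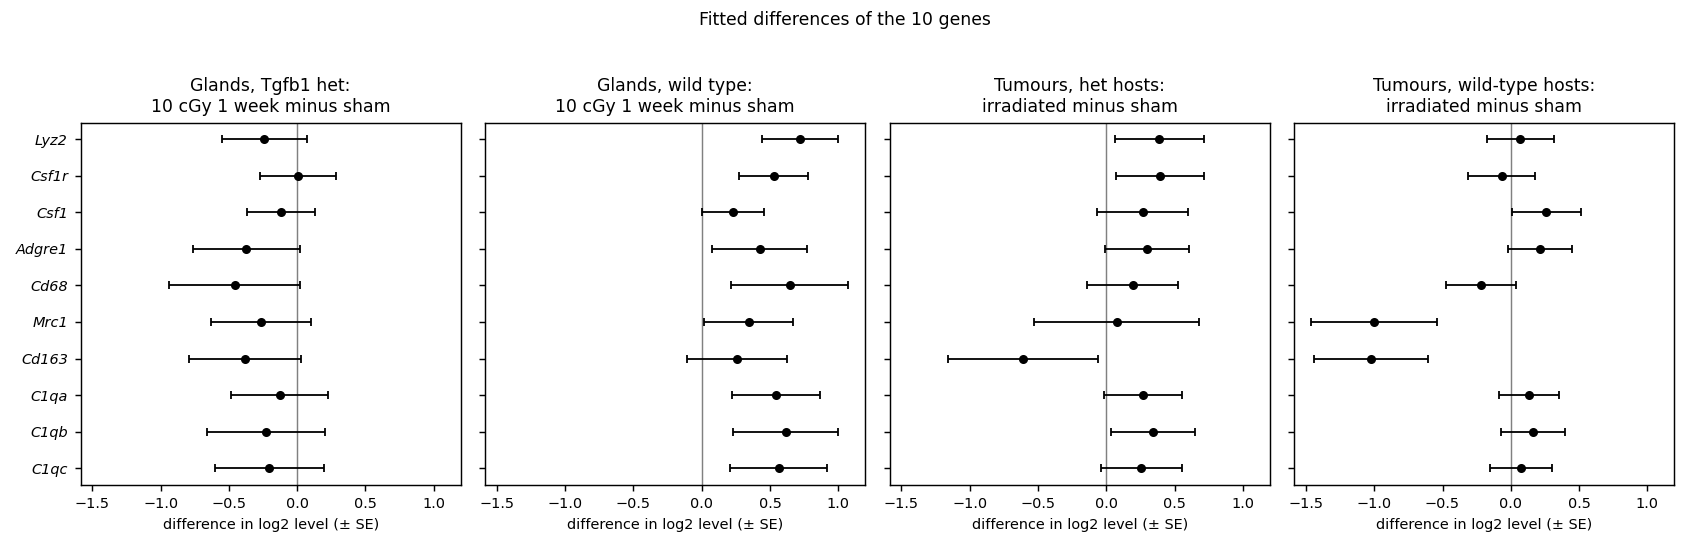
Fitted difference in log2 level (x axis) with its SE (bars) of the 10 genes (y axis) after irradiation, in heterozygous and wild-type glands at 1 week and in tumours of heterozygous and wild-type hosts. All 10 points lie above 0 in wild-type glands, and Mrc1 (-0.998) and Cd163 (-1.03) stand apart in tumours of wild-type hosts.

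Across tumours the C1q genes varied together, and the scavenger receptors followed them less closely than in glands, a difference that was not tested. After the group means had been subtracted, r over 48 tumours was 0.96 for C1qa with C1qb (rho 0.95), 0.98 for C1qa with C1qc (rho 0.98) and 0.97 for C1qb with C1qc (rho 0.96). With the mean of the C1q genes r was 0.89 for Adgre1, 0.85 for Csf1r, 0.80 for Csf1, 0.72 for Lyz2 and 0.72 for Cd68. The adjusted permutation p of r was 1.25e-05 for these 8 relations, which follows from the smallest p that 100000 draws can give. Mrc1 had r = 0.44 (rho 0.36, adjusted permutation p = 0.00547 for r) and Cd163 r = 0.17 (rho 0.15, adjusted permutation p = 0.311). Within the group of 23 tumours from irradiated wild-type hosts, the r with C1q was 0.29 for Mrc1 and 0.03 for Cd163, and within the 9 from sham-treated wild-type hosts it was 0.66 and 0.46. Without the 11 tumours poor in epithelium, r was 0.18 for Mrc1 and -0.10 for Cd163. Mrc1 and Cd163 had r = 0.74 with each other in tumours and 0.93 in glands.

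The receptors also varied most. The SD within groups was 1.20 log2 units for Mrc1 and 1.09 for Cd163 in tumours, against 0.57 to 0.66 for the other 8 genes, and their spans over the 48 tumours were 5.31 and 5.34, against 2.76 to 3.75. Values of Cd163 reached down to 3.97, under the filter level of 5.14. What low values add to its spread and to its low r with C1q was not tested. In glands the SD of Mrc1 was 0.45 and that of Cd163 0.50, within the 0.30 to 0.59 of the 8 others. For the ligand Csf1 the r with C1q in tumours was 0.73 without the 2 farthest tumours. Genes most like the C1q mean in tumours were Tyrobp (r = 0.94), Aif1, Lpxn, Fcgr1, Mpeg1, Tifab, Cd300c2 and Ctss (0.91), of 12776 compared. Of these, Tyrobp, an adaptor of myeloid receptors, and Ctss, a lysosomal protease, are widely expressed in macrophages. The genes most like the mean of Mrc1 and Cd163 were sought after these values had been seen. They were F13a1 (r = 0.87), Folr2 (0.85), Lgi2, Mmp3, Abca9, Npl, Fcna and Dok2 (0.82).

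Single tumours held the extremes of many members at once. Array 14 of the irradiated heterozygous hosts was the lowest of the 48 tumours for 6 members, Adgre1, Cd68, Csf1, C1qa, C1qb and C1qc, with 10.62 for C1qa. Array 13 of the same group was the highest for Lyz2, Csf1r and Mrc1, at 14.21, 12.94 and 12.35. Array 6 of the sham-treated wild-type hosts was the highest for C1qa and C1qc. Arrays 13 and 6 belong to the 11 tumours poor in epithelium, with mean luminal levels of 9.68 and 7.82 against a median of 12.09, while array 14 had 12.59.

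Levels of genes with several probe sets were correlated between probe sets, but the sign of small differences was not always shared. Csf1r is a case, in heterozygous glands at 1 week (given above) and in tumours of wild-type hosts. In those tumours its brightest probe set averaged 11.54 with irradiated and 11.61 with sham-treated hosts, and another averaged 9.04 and 8.95. The other 2 probe sets of Csf1r had r of 0.97 and 0.91 with the brightest one in glands and 0.99 and 0.97 in tumours, those of C1qb 0.87 and 0.85 in glands and 0.91 and 0.88 in tumours. The other 3 of Csf1 had 0.71, 0.71 and 0.84 in glands and 0.80, 0.83 and 0.96 in tumours. With each probe set tested on its own, the smallest adjusted p of any of the 17 over all comparisons was 0.358.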

How the data were processed

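Levels were read from Affymetrix arrays of 17 glands and 48 tumours, which shared a table of 45101 probe sets that was then split by tissue. The authors deposited gland values as linear intensity and tumour values as log2, both summarised by RMA per the submitters' processing notes. No source used here says whether arrays were normalized jointly. Gland intensity was converted to log2, no other scaling was applied, and tissues were not compared by level. Of the probe sets 34958 had 1 gene, 932 several and 9211 none. The probe set with the highest mean stood for its gene, and genes under the 40th percentile were left out. limma 3.58.1 in R 4.3.3 fitted group means within each tissue (residual df 11 and 44) with a trended prior, and Benjamini-Hochberg adjustment ran over all genes tested, with a threshold of 0.05. There were 9 gland and 5 tumour comparisons. Differences are fitted contrasts, with 95% intervals. Relations used group-centred values, 100000 permutations within groups and adjustment over 10 relations a tissue. The number of arrays limits precision.

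Genes were named where they were members, had the smallest p of a list (or passed) or were among the 8 most like the C1q mean. The 8 most like the mean of Mrc1 and Cd163 were added after the values had been seen. The members and lists were chosen with earlier results of these data known. Alternatives were another summary of probe sets, other filters, quantile normalization, an offset of 16, no trend, each array left out, the arrays that stood apart left out, and the replicate number as a block. Same-numbered glands had deviation correlations of -0.48 to 0.37 and same-numbered tumours -0.43 to 0.63, which gave no pairing in general. Between sham and 4-week glands of 1 genotype every same-numbered pair was over 0.1 (0.11 to 0.32 in heterozygous and 0.12 to 0.22 in wild-type glands). Same-numbered pairs of wild-type sham and heterozygous 1-week glands, which differ in genotype, had 0.22 to 0.28. These values therefore cannot decide whether the numbers pair sham and 4-week glands. The printed fits are without the block, which changed no member's call there and gave 1 called gene, against 2 without it, in heterozygous 4-week glands. The fit was tested on simulated data. Python 3.11.15, numpy 2.4.6, pandas 2.3.3, scipy 1.17.1 and matplotlib 3.10.9 were used.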

Additional observations from a re-analysis of the deposited data

Results flagged for a closer look

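In the 3 tumour groups of 10 or fewer, each of the 10 genes was tested for a value far from the rest by Dixon's 95% criterion, and 3 of the 30 tests found one. Chance flags about 1 in 20 groups, but these tests are not independent, since the genes correlate and 2 of the 3 values come from the same array. C1qa measured 10.62 in array 14 of the irradiated heterozygous hosts, against 12.10 in the nearest of the other 9. C1qb measured 9.56 in the same array, against 11.43 in the nearest other. C1qc measured 12.37 in array 6 of the sham-treated wild-type hosts, against 11.50 in the nearest of the other 8.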

How the results depend on the processing

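The count of members that passed was 0 in all 14 comparisons and stayed 0 in all 298 alternative fits, including those that left out 1 array each (0 to 0). With the replicate number as a block it was likewise 0, and the block gave a member median of -0.41 for heterozygous glands at 1 week. Under the block Lyz2 had 0.72 in wild-type glands at 1 week (adjusted p = 0.838 by limma). In tumours of irradiated against sham-treated wild-type hosts Mrc1 had -0.78 and Cd163 -1.08 under the block. Their unadjusted p by limma was then 0.164 and 0.0528, so neither stayed under 0.05. Without the 11 tumours poor in epithelium the relation of Mrc1 with the C1q mean fell below the threshold, at r = 0.18 (adjusted permutation p = 0.370), and that of Cd163 turned to r = -0.10 (adjusted permutation p = 0.651). The cause was not tested. Without the glands rich in muscle genes the member median of the interaction at 1 week was -0.21. The other 58 alternative values of relations, 297 of medians and 112 of single genes kept their direction or moved by less than the spread. Cd163 was lost from the tumour table under the 60th percentile filter. With 2 or 3 arrays a gland group, standard errors of 0.23 to 0.48 limit what the 1-week comparisons can show.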
